A study of Mus musculus with 6 samples.

Results

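The genes described here are 10 members of the AP-1 and immediate early response, followed in mouse epiblast stem cells grown with or without Activin A. They were chosen by name, from knowledge of the pathway and with earlier results of these data known. The Fos family gave Fos, Fosb and Fosl2, and the Jun family Jun, Junb and Jund. The others are the AP-1 partner Atf3, the zinc finger factor Egr1, and the immediate early genes Ier2 and Ier3. They are 10 of the 52609 annotated genes with a transcript in the files, and all 10 were among the 15448 genes with enough reads to be tested. Their transcripts number 25, of which 17 are annotated as coding.

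Epiblast stem cells are primed pluripotent cells taken from the epiblast of the embryo. The study sequenced polyadenylated RNA from 6 samples, 3 with Activin A and 3 without. Both groups grew on inactivated mouse embryonic fibroblasts, so fibroblast RNA can be present in every library. Both received FGF2 at 10 ng/mL, the Wnt secretion inhibitor IWP2 at 5 µM, and SB431542 at 2 µM, an inhibitor of the receptor kinases that Activin, Nodal and TGF-beta signal through. The group with Activin A had 20 ng/mL of that ligand, and the other group is labelled as having none. The treatment text is the same for all samples and mentions Activin A throughout, and the growth factor label of replicate 1 without Activin A also lists it. The series' design text speaks of 2 lines, while the sample labels show no second line, so cell line and Activin A cannot be told apart if the groups differ in both. Nothing says that the samples came from separate cultures, so p-values here measure the spread between these samples only, which may be technical.

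AP-1 is a transcription factor made of pairs of basic leucine zipper proteins. Jun proteins can pair with each other or with Fos proteins, while Fos proteins need a Jun partner to bind DNA. Most of these genes are switched on within minutes of a growth factor, stretch or stress signal, without new protein synthesis, through MAP kinases acting on SRF, its ternary complex partners and CREB. FGF2, present in both groups, is a strong activator of MAP kinase signalling. Most of the transcripts are short-lived, and many also respond to the handling of cells.

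Libraries held 9946521 to 16350923 estimated reads, the lowest in replicate 3 with Activin A. Epiblast markers were present, with a summed level of 621 to 655 TPM (transcript level scaled by length and library) with Activin A and 278 to 299 TPM without. Of their 8 genes, 7 fell and 1 rose without Activin A, and the most abundant, Pou5f1, Epcam and Nanog, had log2 fold changes of -1.63, -1.08 and -1.98. Of 13 fibroblast markers 4 rose, 5 fell and 4 did not pass, and their summed level was 655 to 761 TPM with Activin A and 1023 to 1052 TPM without. The fibroblast genes with the highest TPM, Tagln, Acta2 and Col1a1, had log2 fold changes of 0.52, 1.28 and 0.54. Tagln alone had a mean of 513 TPM with and 742 TPM without Activin A, so it weighs heavily in that sum. The 5 that fell, Col3a1, Thy1, Lox, Dcn and Postn, had log2 fold changes of -1.21, -1.17, -1.07, -0.91 and -0.86. The part of fibroblast RNA in the results below was not tested, and in bulk RNA fewer cells of a type and less RNA per cell cannot be told apart. Mesoderm and endoderm markers summed to at most 2.35 TPM in any library, led by Tbx6, T and Gata4, and 1 of the 10 was at 0 in all libraries.

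Without Activin A, 5 of the 10 genes rose, 1 fell and 4 did not pass the threshold of 0.05 on the adjusted p (quasi-likelihood test of edgeR, Benjamini-Hochberg adjustment over all tested genes). The rises were those of Fosl2 (1.77-fold), Fosb (1.38-fold), Junb (1.26-fold), Atf3 (1.25-fold) and Fos (1.10-fold), and Egr1 was 1.17-fold lower. Jun, Jund, Ier2 and Ier3 did not pass. Across all tested genes 29.2% passed, 14.0% as rises and 15.2% as falls, and the median log2 fold change was 0.12 over the 10 genes and 0.0012 over all. Library values in counts per library size (CPM) separated the groups completely for 6 of the 10 genes, the same 6 that passed, against 42.9% of all tested genes. Of the 6 changes, that of Fosl2 alone exceeded 1.5-fold. The number that passed was 5 to 7 on leaving out any one library and 7 without both doubted libraries, which are replicate 3 with Activin A, the shallowest library, and replicate 1 without, whose growth factor label conflicts with its title.

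**Figure D1:**
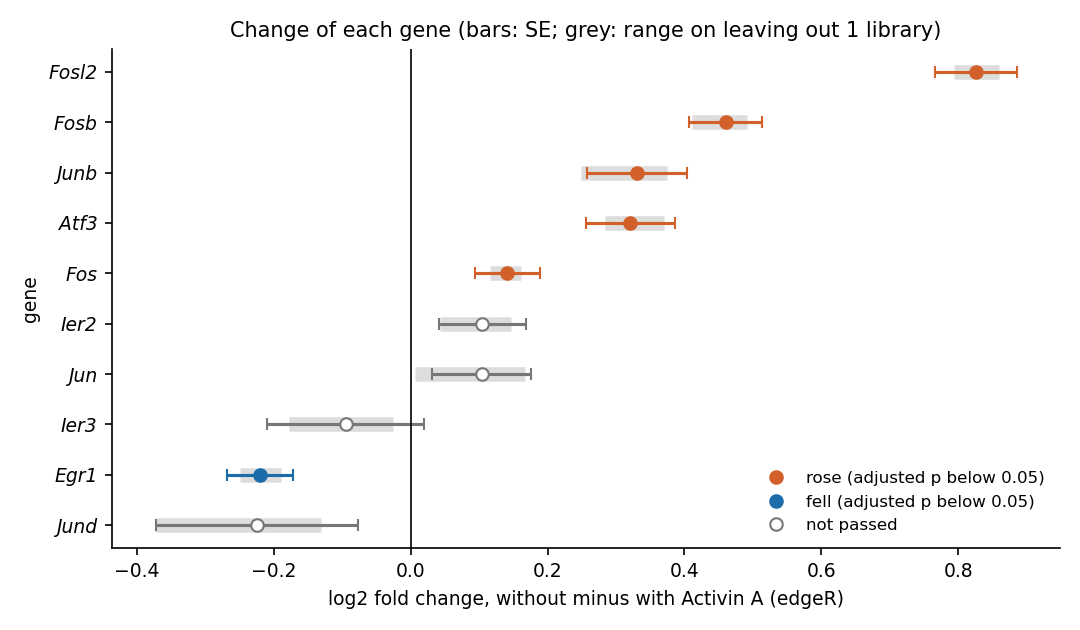
Log2 fold change of the 10 genes, without minus with Activin A, on the horizontal axis, with points for edgeR's estimate, bars for its standard error and grey bands for the range when each library is left out in turn. Fosl2 sits farthest from 0 at 0.83, Egr1 lies at -0.22, and the open points (Ier2, Jun, Ier3 and Jund) did not pass.

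The level of a gene per length of transcript is given in TPM, which allows genes to be compared. Fos was the most abundant of the 10, at 215 to 279 TPM over the 6 libraries, and its range did not meet that of Jun, the next gene, at 75.9 to 95.7 TPM. Egr1 followed at 59.9 to 78.8 TPM and overlapped with Jun. Jund, at 41.4 to 55.3 TPM, lay below Egr1 without overlap. Ier2 (39.7 to 45.5 TPM), Fosb (28.5 to 45.7 TPM), Junb (20.3 to 29.8 TPM) and Atf3 (14.0 to 24.4 TPM) each overlapped with the gene above it in this order. Fosl2 and Ier3 lay below Atf3 without overlap and overlapped with each other, at 4.66 to 9.82 TPM and 5.87 to 7.09 TPM. By mean TPM, Fos stood at the 96.95th percentile of tested genes and Ier3 at the 46.1st. Estimated reads per library ran from 90 for Ier3 to 8719 for Fos, so Ier3 is the least precisely counted.

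**Figure D2:**
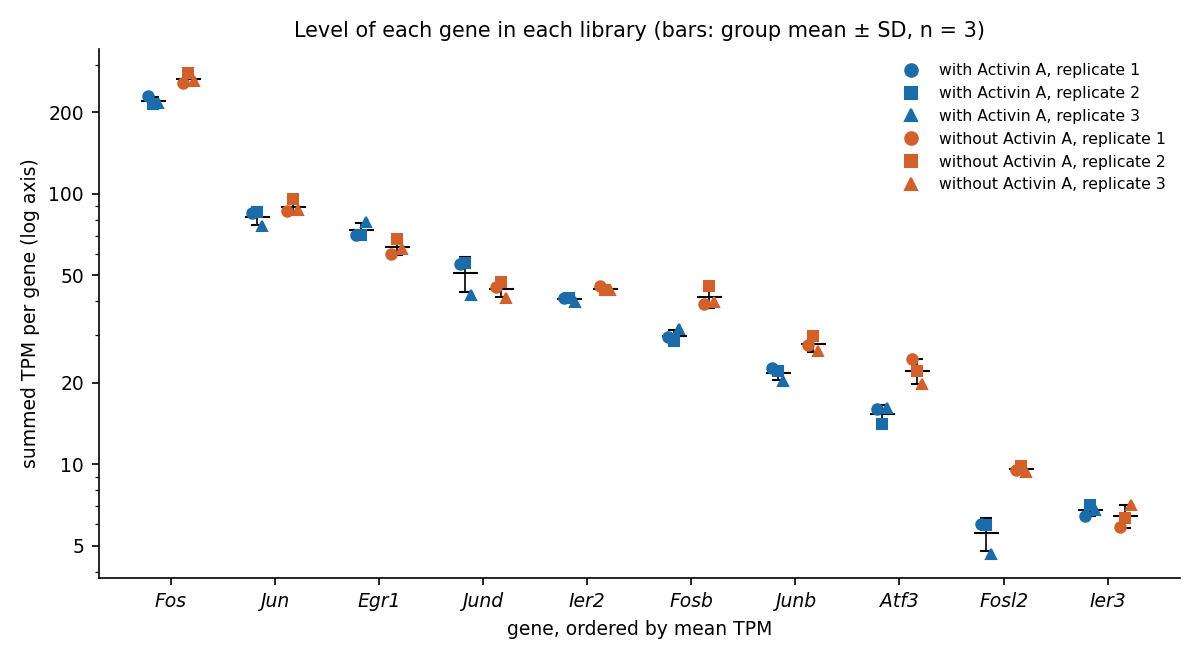
Summed TPM per gene on a log axis for the 10 genes, ordered by mean, with 1 point per library (blue with, orange without Activin A) and bars for the group mean and SD. Fos lies at 215 TPM or more in every library, and the orange points of Fosl2, at 9.35 to 9.82 TPM, lie above all its blue points, at 4.66 to 6.03 TPM.

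Of the 10 genes, 4 (Jun, Junb, Jund and Ier2) have a main transcript of 1 exon. Junb, Jund and Ier2 lie on chromosome 8. On GRCm38, Fos lies at chr12:85473890-85477273 on the plus strand, Fosb at chr7:19302696-19310051 on the minus strand, Fosl2 at chr5:32135801-32157842 on the plus strand and Junb at chr8:84974484-84978718 on the minus strand. Jun lies at chr4:95049034-95052222 on the minus strand, Jund at chr8:70698949-70700616 on the plus strand, Atf3 at chr1:191170296-191218039 on the minus strand and Ier2 at chr8:84661331-84662852 on the minus strand. Ier3 lies at chr17:35821684-35822923 on the plus strand, and Egr1 is on chromosome 18. Exons of Junb overlap those of Prdx2 on the other strand over 173 bases, Jun those of Junos over 232 bases and Jund those of Gm11175 over 877 bases. Prdx2 had up to 4245 estimated reads in a library, Junos up to 15 and Gm11175 had 0. Whether strand was used in the counting is not given in the sources used here, so reads of Junb and Prdx2 in the overlap may not be told apart. In the sense direction the genes share almost no sequence with others: 8 genes share no 31-base word with the transcripts of other genes. Fosb shares 0.031% of its words and Fosl2 0.062%. Words on the opposite strand were not compared, so the overlaps of Junb, Jun and Jund given above are not counted here.

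Promoter windows of RefSeq on GRCm38.p6, from 250 bases before to 50 after the start, were found for 8 of the 10 genes, and were searched on both strands for motifs known from immediate early promoters. The letters TGACG, the core of the cAMP response element bound by CREB and ATF proteins, occurred in 4 of the 8 windows, those of Fos, Fosb, Junb and Atf3. TGACG also forms part of TGACGTCA, so the searches overlap. They occurred in 20.8% of 32851 windows of all genes. The windows of Fosl2, Jun, Jund and Ier3 did not hold them. That of Jund lies wholly upstream of the gene as counted. Its last base before the RefSeq start is chr8:70697738, while the GENCODE gene starts at chr8:70698949. The bases next to the counted Jund gene were thus not searched. The full element TGACGTCA, the AP-1 site TGANTCA, the SRF-bound CArG box, the SMAD motif GTCTAGAC and the EGR site GCGTGGGCG were not in any of these 8 windows, against 1.79%, 7.81%, 1.63%, 0.213% and 0.612% of all windows. The EGR site GCGGGGGCG was in the windows of Fosb and Fosl2 and in 2.91% of all. TATAAA was in those of Fos and Junb and in 13.6% of all. Bases further upstream than 250 were not searched, and Egr1 and Ier2 had no window, so a motif may lie outside the bases searched. A match of letters is a description and does not show a bound site.

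Runs of 180 bases upstream of Fos, Fosb, Junb and Jun are shown as examples, 3 from genes that rose and 1 from a gene that did not pass. Among the genes not shown, Fosl2, which rose most, had no TGACG in its window, and Atf3, which also rose, had it. Jund and Ier3, which did not pass, had none in theirs. A link between the motif and the change was not tested. The runs of Fos, Fosb and Jun end at the base before the GENCODE gene, and that of Junb at the base before the RefSeq start, which lies further upstream. Capitals mark TGACG and TATAAA, and each run reads 5′ to 3′ on the strand of the gene. They come from chr12:85473710-85473889 (plus strand) for Fos, chr7:19310052-19310231 (minus) for Fosb, chr8:84978749-84978928 (minus) for Junb and chr4:95052223-95052402 (minus) for Jun.
Fos: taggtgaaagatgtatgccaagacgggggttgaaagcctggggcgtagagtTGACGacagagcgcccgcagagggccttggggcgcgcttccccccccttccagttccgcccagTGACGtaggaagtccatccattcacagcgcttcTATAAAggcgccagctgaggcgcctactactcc
Fosb: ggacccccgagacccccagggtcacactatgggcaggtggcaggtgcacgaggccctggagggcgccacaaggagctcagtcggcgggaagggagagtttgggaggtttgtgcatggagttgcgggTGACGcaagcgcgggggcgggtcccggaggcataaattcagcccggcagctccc
Junb: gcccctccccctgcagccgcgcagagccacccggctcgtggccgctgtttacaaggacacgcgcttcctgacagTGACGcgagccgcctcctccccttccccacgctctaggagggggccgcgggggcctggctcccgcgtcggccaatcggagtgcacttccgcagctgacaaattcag
Jun: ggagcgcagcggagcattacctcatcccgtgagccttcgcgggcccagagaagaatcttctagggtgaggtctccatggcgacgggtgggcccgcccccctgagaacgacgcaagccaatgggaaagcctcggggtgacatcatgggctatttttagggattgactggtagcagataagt

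In Fos the TGACG matches begin at positions -129 and -66 from the RefSeq start, and TATAAA at -33. The single match begins at -60 in Fosb and at -106 in Junb. In Junb the TATAAA match begins at position 1, just downstream of the printed run. The Jun run holds neither marked motif.

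Fos, Fosb and Fosl2 all rose, Fos with the least secure call, and the least abundant of them, Fosl2, rose most. This does not extend to Fosl1, a further Fos family gene listed below among the AP-1 partners. Fosl1 was less abundant still, at a mean of 0.86 TPM with and 0.79 TPM without Activin A. Its log2 fold change was -0.20 and did not pass. Fosl2, which encodes FRA-2, a Fos protein without a strong activation domain, had 34.0, 35.9 and 32.4 CPM with Activin A in replicates 1 to 3, and 61.0, 60.7 and 60.0 CPM without. All 3 libraries without Activin A were above all those with it, and the groups lay far apart relative to their spread. The fit gave a log2 fold change of 0.83 ± 0.06 (SE; edgeR adjusted p = 9.20e-08). It stayed between 0.79 and 0.86 on leaving out any one library.

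Fosb, whose product FosB has a truncated splice form known from long-lasting stimulation of neurons, had 166, 166 and 162 CPM with Activin A and 217, 242 and 220.0 CPM without. The groups did not overlap, and replicate 2 was the highest of those without. The change on the log2 scale was 0.46 ± 0.05 (SE; edgeR adjusted p = 1.14e-05).

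Fos, the prototype immediate early gene, had 533, 519 and 502 CPM with Activin A and 562, 583 and 568 CPM without. The groups did not overlap, but they lay close together. Its log2 fold change was 0.14 ± 0.05 (SE; edgeR adjusted p = 0.0352). This is the least secure of the 6 calls. It was lost on leaving out replicate 2 with Activin A (adjusted p = 0.0599) or any library without Activin A (0.0925, 0.155 and 0.107 for replicates 1 to 3). It was also lost with upper-quartile scaling (0.0991), with no filter on low counts (0.0513) and with the replicate number as a block (0.0627), with a log2 fold change of 0.11 to 0.15 in all of these.

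Summed over Fos, Fosb and Fosl2, the level was 265, 249 and 254 TPM with Activin A and 305, 335 and 311 TPM without. The sum was 1.24-fold higher without Activin A and its groups did not overlap, with an exact two-sided permutation p of 0.1, the smallest that 3 against 3 allows. Fos made up most of that sum. Its share was 86.1% ± 0.396 with and 83.9% ± 0.429 without Activin A (SD, n = 3 each), while Fosl2 went from 2.17% ± 0.295 to 3.02% ± 0.0946 and Fosb from 11.7% ± 0.650 to 13.1% ± 0.493. None of these 3 shares overlapped between the groups, each with the same smallest exact permutation p of 0.1. The sums and shares in TPM include 3 noncoding Fos transcripts of 631 to 834 bases, whose small length gives their reads a large weight. The coding transcript Fos-201 had 154.0, 145.7 and 164.5 TPM with Activin A and 160.4, 174.8 and 161.6 TPM without. For Fos-201 alone the groups overlapped in TPM.

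Part of the Fos family signal was assigned to annotated transcripts that hold bases of an intron of the main transcript. There are 3 of these for Fos, 1 for Fosb, which is a single unspliced exon, and 2 for Fosl2. Fos transcripts with intron bases had 65.0, 60.8 and 41.6 CPM with Activin A and 80.7, 82.8 and 84.1 CPM without. The coding transcript of Fos had 468, 459 and 460.1 CPM with and 482, 501 and 484 CPM without. The first class was 1.48-fold higher without Activin A and the second 1.06-fold higher, and neither overlapped between groups. Most bases of these 3 Fos transcripts are exonic, with 24 to 244 intron bases in lengths of 631 to 834 bases. Fos-203, with the most intron bases, overlapped between groups in TPM, at 44.8, 34.3 and 41.8 with and 36.6, 42.2 and 42.1 without. Fos-202 and Fos-204, with 24 and 105 intron bases, had higher TPM in every library without Activin A than in any with it. With the coding transcript alone, an alternative added after seeing the data, Fos had a log2 fold change of 0.08 ± 0.05 (SE) and did not pass (edgeR adjusted p = 0.207).

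In Fosb the unspliced transcript had 47.1, 42.6 and 44.4 CPM with Activin A and 70.6, 74.8 and 62.9 CPM without. Its coding transcripts went from 120 ± 2.86 CPM to 157 ± 10.6 CPM (SD, n = 3 each), and both classes were free of overlap. In Fosl2 the coding transcript went from 27.2 ± 1.64 to 49.6 ± 0.527 CPM, and the transcripts with intron bases had 8.44, 8.70 and 3.61 CPM with and 11.3, 10.7 and 11.0 CPM without. Replicate 3 with Activin A was the lowest library for the intron class of both Fos and Fosl2. Reads are split between the transcripts of a gene by estimation, and that error is not in the files, so the test on the coding transcript of Fos does not include it, and the transcripts with intron bases were not tested.

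**Figure D3:**
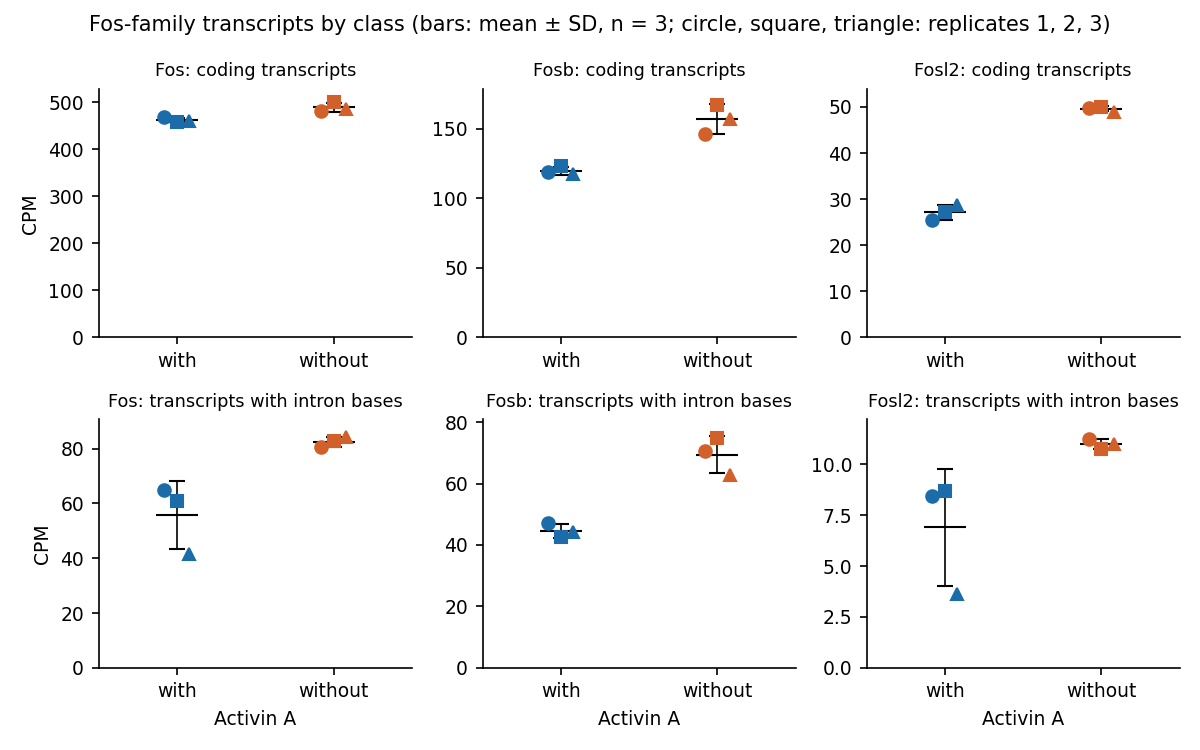
CPM of the coding transcripts (upper row) and of the transcripts with intron bases (lower row) of Fos, Fosb and Fosl2, with 1 point per library and bars for the group mean and SD, each vertical axis starting at 0. Orange points (without Activin A) lie above blue ones in all 6 panels, and replicate 3 with Activin A (blue triangle) is low for the intron class of Fos, at 41.6 CPM, and of Fosl2, at 3.61 CPM.

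The truncated form of FosB comes from removal of 140 bases of the last exon of Fosb (chr7:19305007-19305146). Fosb-207, an annotated transcript with that removal that lacks 259 bases of Fosb-201 in all, held 1.59%, 2.57% and 3.68% of the gene's TPM with Activin A and 1.51%, 1.02% and 5.06% without. The groups overlapped. Most coding reads were assigned to Fosb-201 and to Fosb-205, which lacks 128 bases of Fosb-201. Fosb-201 held 24.5%, 30.2% and 14.8% of the TPM with Activin A and 17.5%, 34.2% and 38.2% without, and the groups overlapped.

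In the Jun family only Junb passed. Junb, a Jun protein that activates less strongly than c-Jun on single AP-1 sites, had 57.9, 58.2 and 47.7 CPM with Activin A and 69.8, 71.6 and 65.8 CPM without. The groups did not overlap, and replicate 3 with Activin A was the lowest. The fit gave a log2 fold change of 0.33 ± 0.07 (SE; edgeR adjusted p = 0.0033), and 0.25 (adjusted p = 0.000463) without that library. The call was lost with an offset for transcript length, where the log2 fold change was 0.31 ± 0.09 (SE) (adjusted p = 0.0660).

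Jun, which encodes c-Jun, had 407, 425 and 336 CPM with Activin A and 409, 433 and 415 CPM without. Apart from the low replicate 3 with Activin A, the libraries overlapped, and the log2 fold change, 0.10 ± 0.07 (SE), did not pass (edgeR adjusted p = 0.323). Without that replicate it was 0.0062. In TPM the groups did not overlap, at 84.8, 85.5 and 75.9 with and 86.1, 95.7 and 87.5 without.

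Jund, the Jun family member usually present in resting cells, had 127, 133 and 90.1 CPM with Activin A and 104, 103 and 94.6 CPM without. Replicates 1 and 2 with Activin A were the highest of the 6 libraries and replicate 3 the lowest. The change on the log2 scale was -0.22 ± 0.15 (SE; edgeR adjusted p = 0.32), which did not pass. This result rests on 1 library. Without replicate 3 with Activin A, Jund passed with -0.37 ± 0.04 (SE; adjusted p = 3.93e-07), and without both doubted libraries with -0.40 (6.41e-06). It also passed, at -0.13 (adjusted p = 0.00949), with the GC and length trend of the libraries removed.

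The summed Jun family had 162, 163 and 138 TPM with Activin A and 159, 173 and 155 TPM without, which overlapped (exact two-sided permutation p = 0.6). The ratio of the means was 1.05, and 0.998 without replicate 3 with Activin A. Shares within the family differed without overlap for Junb and Jund. The share of Junb went from 14.1% ± 0.569 to 17.2% ± 0.278 and that of Jund from 32.8% ± 1.97 to 27.5% ± 0.893 (SD, n = 3 each), both without overlap (exact permutation p = 0.1, the smallest possible). Jun held 53.2% ± 1.45 and 55.3% ± 1.15. The Fos family's share of both families was 62.4% ± 2.14 with and 66.2% ± 0.516 without Activin A, again without overlap and with the smallest exact permutation p of 0.1, although the groups overlapped when CPM took the place of TPM (exact permutation p = 0.3).

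Atf3, a stress-responsive ATF family protein that pairs with Jun and represses as a homodimer, had 36.4, 32.9 and 33.7 CPM with Activin A and 42.7, 44.5 and 41.8 CPM without. The groups did not overlap. Its log2 fold change was 0.32 ± 0.065 (SE; edgeR adjusted p = 0.00179), and its TPM sum was 1.44-fold higher. The short noncoding transcript Atf3-202 had 3.46, 3.37 and 3.67 TPM with and 10.7, 6.57 and 5.47 TPM without, all 3 above the group with Activin A, and its small length gives its reads a large weight in TPM.

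Egr1, a zinc finger factor that responds to growth factors through SRF, was the only one of the 10 to fall. It had 326, 338 and 335 CPM with Activin A and 274, 298 and 285 CPM without, and all libraries without Activin A were below all those with it. The fit gave a log2 fold change of -0.22 ± 0.05 (SE; edgeR adjusted p = 0.00321). It did not pass with limma-trend on log2(TPM + 1), at -0.20 ± 0.08 (SE) (adjusted p = 0.181). Egr1 and Fos are both activated through SRF in many cells, and here their log2 fold changes had opposite signs. The call of Fos is the least secure of those that passed, and its coding transcript alone did not pass.

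Ier2, a nuclear protein gene induced early by growth factors, had 86.0, 88.9 and 76.0 CPM with Activin A and 93.5, 86.4 and 90.8 CPM without. The groups overlapped in CPM, and the log2 fold change, 0.10 ± 0.06 (SE), did not pass (edgeR adjusted p = 0.246). In TPM they did not overlap, at 41.3, 41.3 and 39.7 with and 45.5, 44.1 and 44.2 without. With the GC and length trend removed, Ier2 passed at 0.18 (adjusted p = 0.00128). Ier3, which bears on cell survival downstream of NF-kappaB, had 9.29, 10.5 and 8.98 CPM with and 8.36, 8.62 and 10.1 CPM without. Its highest values came from both groups, and the log2 fold change, -0.10 ± 0.12 (SE), did not pass (edgeR adjusted p = 0.587).

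Replicate spread differed among the 10 genes, from Fos with the lowest to Jund with the highest. The SD of log2 CPM within groups, pooled over both, was 0.0364 for Fos, 0.0465 for Egr1, 0.0520 for Fosl2, 0.0629 for Fosb and 0.0633 for Atf3, at the 5.2nd to 20.45th percentile of tested genes. It was 0.124 for Junb, 0.132 for Jun and 0.223 for Jund, at the 56.6th, 59.7th and 79.6th percentiles. Replicate 3 with Activin A lay below its group mean for 9 of the 10 genes, with a median deviation of -0.0813, against 0.0001 over all tested genes. Its largest deviations were -0.353 for Jund, -0.207 for Jun, -0.189 for Junb and -0.134 for Ier2. The GC content of their transcripts was 67.2% for Jund, 62.6% for Junb, 60.9% for Ier2 and 55.5% for Jun, and all 10 genes were above the median of 50.3% over tested genes. The part of GC content in that library's low values was not tested.

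**Figure D4:**
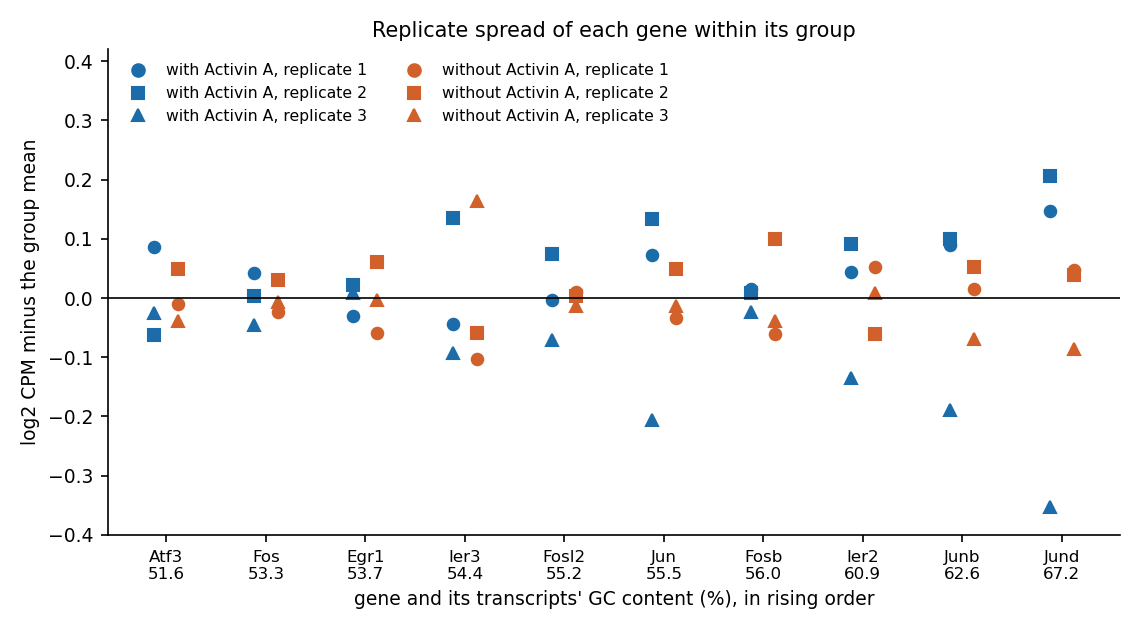
Log2 CPM of each gene minus its group mean, 1 point per library, with genes ordered by the GC content of their transcripts. Replicate 3 with Activin A (blue triangle) lies lowest for Jun, Ier2, Junb and Jund, down to -0.353, while points for Fos and Egr1 stay within 0.0614 of the mean.

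The letters ATTTA, which occur in AU-rich elements of many short-lived transcripts, varied in number among the 10. In the last 500 bases of the most abundant coding transcript, ATTTA occurred 5 times in Ier3, 4 times in Fos and 3 times in Jun. As many or more were found in 1.2%, 3.48% and 9.18% of 12760 tested genes with a transcript of that length. Junb and Egr1 had 2, Fosl2, Jund and Atf3 had 1, and Fosb and Ier2 had 0 in this window, where the median gene had 1. At least 1 was present in 51.0% of the genes searched, so these counts are a description and do not show decay.

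Other genes of the pathway changed in both directions. Beside the counts of this list and those below stand the shares over all tested genes, of which 14.0% rose and 15.2% fell. Of 12 further AP-1 partners 9 were tested, of which 1 rose, 1 fell and 7 did not pass, with a median log2 fold change of 0.08. Atf7, a CREB-like factor that pairs with Jun, had a log2 fold change of 0.31 (edgeR adjusted p = 0.00269). That direction turned with the transcript length offset (-0.08) and with limma-trend on log2(TPM + 1) (-0.04), neither of which passed. Maff, a small Maf protein, fell by 0.40 on the log2 scale (edgeR adjusted p = 0.0119). Its call was lost in 8 of the other settings. Fosl1, which encodes FRA-1, had only 14 to 41 reads per library, with 2.03 ± 0.572 CPM with and 1.82 ± 0.173 CPM without Activin A (SD, n = 3 each), and did not pass (edgeR adjusted p = 0.595).

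All 30 other immediate early genes were tested, of which 11 rose, 9 fell and 10 did not pass, with a median log2 fold change of -0.01. The shares over all tested genes were 14.0% for rises and 15.2% for falls. Zfp36l1, which encodes a protein that speeds the decay of AU-rich mRNA, rose from 172 ± 7.96 to 294 ± 2.04 CPM (SD, n = 3; edgeR adjusted p = 2.21e-08). Phlda1 rose from 8.46 ± 0.233 to 15.4 ± 0.694 CPM (edgeR adjusted p = 7.61e-06). Ctgf, a matricellular gene also driven by SRF and YAP, fell from 229 ± 4.31 to 117 ± 5.29 CPM (edgeR adjusted p = 2.86e-09), and Trib1, a pseudokinase gene, from 87.7 ± 1.75 to 40.8 ± 2.49 CPM (edgeR adjusted p = 4.40e-09). The widest log2 fold changes in the list, named after their values were seen, were 1.83 for Npas4, on 10 to 71 reads per library, and -1.29 for Arc, both known from stimulated neurons. The Egr1 relatives Egr2, Egr3 and Egr4, also named afterwards, had log2 fold changes of -0.31, -0.26 and -0.36, of which only that of Egr2 passed (edgeR adjusted p = 0.0345), while its TPM overlapped between the groups.

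Of 21 kinases and factors upstream of immediate early genes 8 rose, 1 fell and 12 did not pass, with a median log2 fold change of 0.10. Among all tested genes 14.0% rose and 15.2% fell. Mapkapk2, a kinase downstream of p38, rose from 96.3 ± 0.471 to 149 ± 1.55 CPM (SD, n = 3; edgeR adjusted p = 1.65e-07), and Creb1 by 0.28 on the log2 scale (adjusted p = 0.00166). Mapk9, which encodes JNK2, fell by 0.24 (adjusted p = 0.00388). With the length offset or limma-trend 2 genes of the list rose and 0 fell. In these settings fewer genes passed over all tested genes too.

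Late AP-1 targets included several genes that fell. Of 18 listed, 14 were tested, of which 7 fell, 1 rose and 6 did not pass, with a median log2 fold change of -0.13. Among all tested genes 15.2% fell and 14.0% rose. Hbegf, an EGF receptor ligand, rose from 3.64 ± 0.760 to 8.08 ± 1.35 CPM (SD, n = 3; edgeR adjusted p = 0.000173). Timp1, a protease inhibitor, and Lgals3, a galectin, fell by 0.44 and 0.37 on the log2 scale (adjusted p = 0.000648 and 0.0020). The falls numbered 4 without replicate 1 or replicate 2 of the group without Activin A and with DESeq2, and 3 with the length offset or limma-trend. With DESeq2, the length offset and limma-trend fewer genes passed over all tested genes too. Several of these genes are also made by fibroblasts, whose markers rose for 4 and fell for 5 of 13 genes, and their part in these falls was not tested.

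Of 10 heat shock genes, which respond to handling stress, 1 rose, 0 fell and 9 did not pass, with log2 fold changes from -1.0004 to 0.19. Without both doubted libraries 1 rose and 2 fell. Hsph1, a co-chaperone of the HSP70 system, had a log2 fold change of 0.19 (edgeR adjusted p = 0.0183), lost in 6 of the other settings. The list's median log2 fold change was -0.06.

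**Figure D5:**
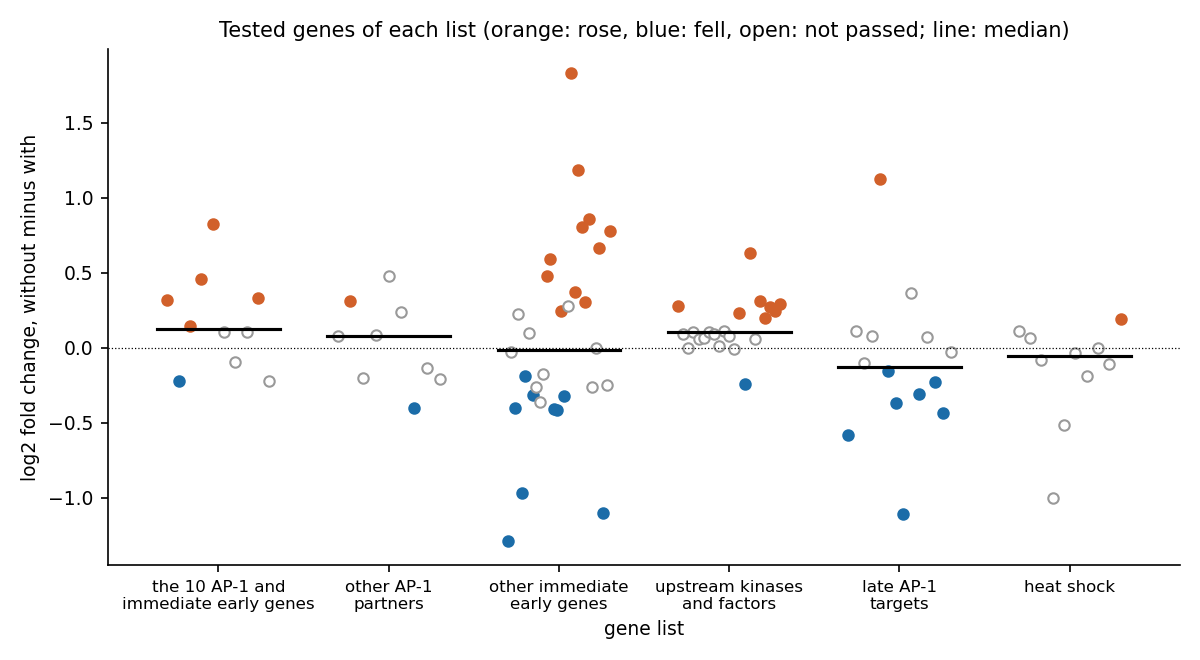
Log2 fold change of each tested gene, without minus with Activin A, by gene list, with orange for genes that rose, blue for genes that fell, open points for genes that did not pass and a line at the median. The 30 other immediate early genes spread from -1.29 to 1.83 around a median of -0.01, and the 10 described here from -0.22 to 0.83 around 0.12.

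The genes whose log2 CPM was most like that of Fos over the 6 libraries, among 11395 others with a mean of at least 5 CPM, were Pcnx, Txndc5 and Smarcc2, with Pearson coefficients of 0.9992, 0.9976 and 0.9974. Those most like Egr1 were Il4ra, Fcgr2b and Tnk1, with 0.9971, 0.9970 and 0.9953. The 6 points fall in 2 groups and all genes share the same libraries and scaling, so the coefficients are given as a description.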

How the data were processed

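The deposited files give an estimated count and a TPM value for each of 133618 transcripts in 6 libraries. Per the file headers, the deposited estimated counts and TPM values stand in the columns that salmon writes. Salmon, DESeq2 and edgeR appear, without versions, in the submitters' processing notes. Not given in the sources used here are the authors' genome build, annotation and strand setting. Libraries were made with a stranded mRNA kit, per the labels' protocols.

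Transcripts were matched to GENCODE M21 (GRCm38) with the version ignored. The 219 that did not match held 0.131% to 0.149% of reads and were left out. Estimated counts were summed per gene and rounded. Genes were filtered with filterByExpr (minimum count 10, minimum total 15), scaled by TMM, and tested over all 15448 remaining genes with the robust quasi-likelihood F test of edgeR 4.0.16 in R 4.3.3. Adjustment of p-values was that of Benjamini and Hochberg (Benjamini-Hochberg), with a threshold of 0.05. Log2 fold changes are without minus with Activin A, with a standard error of size over the square root of F. CPM are TMM-scaled. Log2 CPM used a prior count of 2. The fit was tested on simulated data with changes larger than any found among the 10 genes. That test therefore does not show how well changes of their size are called.

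The members and lists were chosen with earlier results of these data known. Beside the 10 members, the rule named up to 2 passed genes per list and direction with the smallest p-values, the 3 most abundant markers per cell type, and the 3 genes most correlated with Fos and with Egr1. The other settings were DESeq2 1.42.0, scaling by RLE or the upper quartile, limma-trend (limma 3.58.1) on log2(TPM + 1) and log2(TPM + 0.1), 2 other filters, a length offset, coding genes only, a replicate block, a GC and length trend removed per library (mgcv 1.9.3), and each library left out. Removal of both doubted libraries and use of coding transcripts alone were added after seeing the data.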

Additional observations from a re-analysis of the deposited data

How the results depend on the processing

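The 10 genes kept the sign of their log2 fold change under all 19 other settings. Of their 190 values, 175 also stayed on the same side of the threshold, 11 lost a call (8 of them Fos) and 4 gained one (Jund and Ier2). The number that passed was 5 to 8 over all settings. Falls numbered 0 with limma-trend at either pseudocount, where Egr1 was lost, and 2 without replicate 3 with Activin A, without both doubted libraries or with the GC and length trend removed, where Jund was added. Leaving out 1 library gave 5 to 7 calls, 4 to 5 rises and 1 to 2 falls. Shared replicate numbers gave no sign of pairing: deviations of same-numbered libraries correlated at -0.025, -0.052 and -0.057. Those of differently numbered libraries correlated at -0.018 to 0.07. Low correlations cannot show that the samples were unpaired in culture or preparation. The replicate block gave 5 calls among the 10 genes and 4422 over all. Over all genes 4505 passed, but 1559 with limma-trend at a pseudocount of 1 (778 rises, 781 falls), 1504 at 0.1 (752 each way) and 2050 with the length offset (937 and 1113). DESeq2 gave 1492 falls against 2350. Upper-quartile scaling gave 1737 rises and 2702 falls. Leaving out 1 library gave 3246 to 5689 calls, 1483 to 2808 rises and 1763 to 2881 falls. Over the 5 companion lists 40 genes passed (22 rises, 18 falls), but 18 (10 and 8) with limma-trend at either pseudocount and 21 (11 and 10) with the length offset, and 30 to 47 (17 to 25 rises, 12 to 22 falls) on leaving out 1 library. Atf7 turned from 0.31 to -0.0416 and -0.0461 with limma-trend at the larger and smaller pseudocount and to -0.0771 with the length offset. Of the 468 values of the other named genes, 33 lost a call with the sign kept, besides these 3 of Atf7, which lost it too. On leaving out 1 library the Fos family ratio was 1.204 to 1.261, the Jun family ratio 0.998 to 1.08, turning below 1 without replicate 3 with Activin A, and the difference in the Fos share 2.81 to 4.92 percentage points. The cause of these changes was not tested. Among the 10 genes, depth limits Ier3 most, with as few as 90 estimated reads.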
